A study of Homo sapiens with 12 samples.

Results

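Kava was set against its vehicle in BEAS-2B cells, bronchial epithelium of human origin that was made immortal with a viral antigen, after 20 weeks of exposure to hexavalent chromium [Cr(VI)], and transcript levels were read from 3 kava and 3 vehicle libraries, 6 of the 12 libraries of the series. The genes compared were the 13866 of 78932 in the table whose mean over these 6 libraries was at least 1 TPM (a transcript level scaled for transcript length and to the same sum in each library). Both groups carry the genotype label WT and received 0.25 µM potassium dichromate, K2Cr2O7, throughout. The vehicle group received 0.05% DMSO as well, and the kava group 25 µg/ml kava. The labels give no DMSO dose for the kava group. Control siRNA libraries, cited below for levels only, came from cells with the same K2Cr2O7 and DMSO doses as the vehicle group. Those cells also received 100 nM control siRNA for 48 hours. No group without Cr(VI) was compared here, so the values show kava against vehicle under chromate and not the change that chromate itself brings.

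The labels do not say whether the 3 replicates of a group were separate cultures or repeat samplings of a single long-term culture. A p-value therefore measures the spread between these libraries, which may be technical, and a difference that arose in a culture over the 20 weeks cannot be told apart from a response to kava. Levels are given as means ± SD of 3 libraries (n = 3) and log2 fold changes ± SE of log2(TPM + 1), and adding 1 makes the changes of weakly expressed genes look smaller than they were. A gene was called changed at a limma adjusted p under 0.05. The filter used the mean of all 6 libraries, so a gene low in 1 group could enter the test through the other group alone. The table holds no read counts, so the depth of each library is unknown and no counting error is given.

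Kava is an extract of the root of Piper methysticum, and its kavalactones are known to act on GABA-A receptors and voltage-gated sodium channels in neurons and to be cleared by cytochromes P450 and conjugating enzymes in the liver. Hexavalent chromium enters cells through anion transporters, is reduced inside them by ascorbate and glutathione, and leaves chromium-DNA adducts and crosslinks that excision and mismatch repair act on. Prolonged exposure can turn BEAS-2B cells into a transformed line that grows without anchorage. The title of the series links kava to the splicing factor SNRPA1, and the comparison asks which transcripts differ when kava is present during that exposure.

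Of the markers of a bronchial epithelial line some were high and others nearly absent. The simple keratins KRT8 and KRT18 stood at 583 and 426 TPM with vehicle and vimentin, VIM, an intermediate filament of mesenchymal and cultured cells, at 1785 TPM. The basal cell genes KRT5, KRT14, KRT15 and TP63 and the epithelial cadherin CDH1 were too low to test. Of 12 markers of differentiated airway and alveolar cells, SCGB1A1, SCGB3A1, BPIFA1, SFTPA1 and SFTPB were at 0 in all 6 libraries, and 2 reached the level tested with no call, AGER at 3.97 TPM with vehicle and 3.53 TPM with kava and CAPS at 2.97 and 2.03 TPM. That list summed to 6.14 to 8.00 TPM with vehicle and 4.85 to 6.95 TPM with kava. Of 10 fibroblast markers 5 were tested, and the list summed to 483 to 516 TPM with vehicle and 504 to 532 TPM with kava, most of it THY1, while DCN, PDGFRA and COL3A1 stayed near 0. COL1A2 was called higher, from 0.101 to 8.54 TPM. COL1A1 and ACTA2 were called lower, calls that did not hold in every alternative fit. LUM and FAP, too low to test, stood at 0.116 and 0.239 TPM with vehicle and 0.657 and 0.466 TPM with kava. The endothelial list summed to 1.39 to 1.59 TPM with vehicle and 0.399 to 0.479 TPM with kava, with none of 6 markers tested. The blood list summed to 19.8 to 22.5 and 31.7 to 34.7 TPM, from CD68 and CD14, with PTPRC near 0 and HBB at 0. Of 10 neuroendocrine and neural markers 6 were at 0 in all 6 libraries. In bulk RNA, fewer cells of a kind and less RNA per cell cannot be told apart.

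Replicates lay close together. Pearson's r of log2(TPM + 1) over the tested genes was 0.990 to 0.994 within groups and 0.980 to 0.983 between them. The first principal component held 58.0% of the variance and separated the groups. The second held 15.6% and set kava replicate 1 (-19.0) apart from kava replicate 3 (14.4). Kava replicate 3 was also high in RN7SK, an RNA that lacks a poly(A) tail. RN7SK stood at 122.6 TPM there, against 15.7 and 14.3 TPM in the other kava libraries and 29.6 to 35.8 TPM with vehicle. No other RNA of this kind is given here. The part of such RNA in the results was not tested, and results that depend on this library are named where they occur. SNRPA1 itself was lower with kava, at 0.845 of its vehicle level (log2 fold change -0.24 ± 0.0359, limma adjusted p = 0.00227).

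Many genes differed between kava and vehicle by small amounts. Of the 13866 tested genes 31.9% were called, with 2261 (16.3%) higher and 2168 (15.6%) lower. In 47.2% of tested genes the kava and vehicle libraries did not overlap. Of the called genes 30.6% moved by less than 0.25 on the log2 scale and 44.8% by 0.25 to 0.5, and the median absolute change was 0.33 among called genes and 0.15 among all tested genes. Changes of at least 2-fold numbered 151 upward (1.09%) and 57 downward (0.411%). Rises outnumbered falls among these larger changes at every level of expression: 84 against 33 among genes of 1 to 5 TPM, 36 against 20 from 5 to 20 TPM, 24 against 4 from 20 to 100 TPM and 7 against 0 above 100 TPM. The called share went from 23.1% of the genes of 1 to 5 TPM to 43.9% of those above 100 TPM. Without vehicle replicate 1 the number of genes called lower was 1415.

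**Figure D1:**
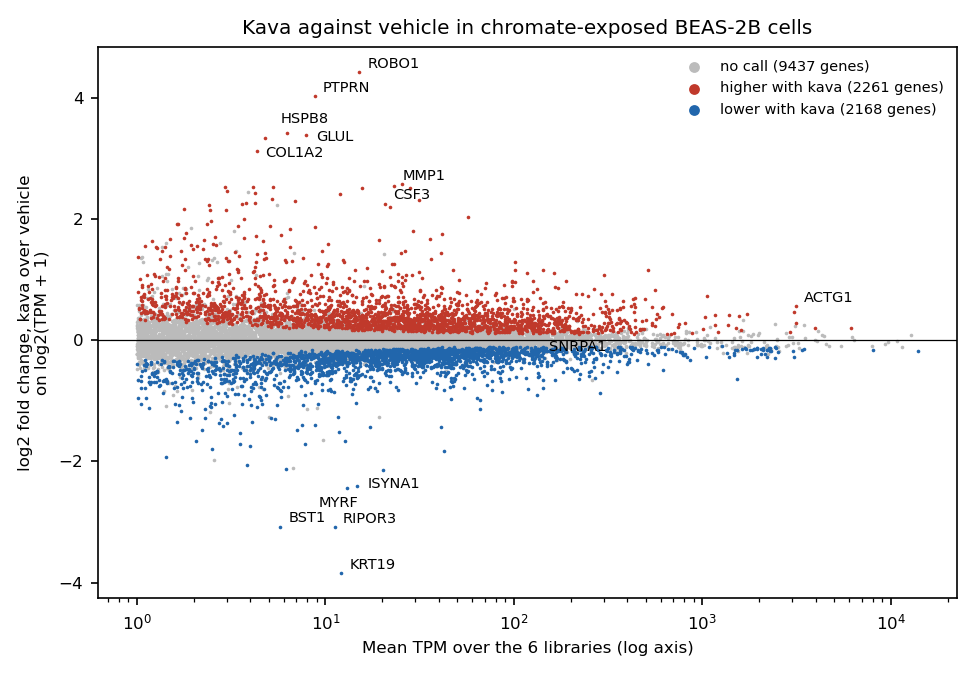
Log2 fold change of each tested gene, kava over vehicle on log2(TPM + 1), against its mean TPM over the 6 libraries on a log axis. Red points are the 2261 genes called higher and blue points the 2168 called lower (limma adjusted p under 0.05), and most of them lie within 1 of the zero line, with ROBO1 the highest point and KRT19 the lowest.

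The largest rises were of genes that vehicle cells barely expressed. ROBO1 stood at 0.742, 0.281 and 0.245 TPM in vehicle replicates 1, 2 and 3 and at 23.7, 27.5 and 38.0 TPM in kava replicates 1, 2 and 3. ROBO1 is a receptor for the SLIT guidance proteins, and its lowest kava value lay far above its highest vehicle value (difference of 4.42 ± 0.193, log2 scale, limma adjusted p = 1.05e-05). The gene spans chr3:78597240-79767815 of hg38, and PTPRN chr2:219289623-219309648. PTPRN stood at 0.115, 0.134 and 0.149 TPM in vehicle replicates 1, 2 and 3 and at 18.7, 17.8 and 15.8 TPM in kava replicates 1, 2 and 3 (difference of 4.02 ± 0.0863, log2 scale, limma adjusted p = 1.20e-06). PTPRN is a protein of dense-core secretory granules. HSPB8 stood at 0.271, 0.202 and 0.233 TPM in vehicle replicates 1, 2 and 3 and at 11.4, 14.3 and 10.9 TPM in kava replicates 1, 2 and 3 (difference of 3.41 ± 0.113, log2 scale, limma adjusted p = 4.63e-06). HSPB8 is a small heat shock protein that works with BAG3 in chaperone-assisted autophagy. Ranked rises were taken only from genes whose groups did not overlap, so that separation was set by the choice.

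A switch meant under 0.2 TPM in all 3 libraries of a group and at least 2 TPM in all 3 of the other. Genes whose names mark an uncharacterised locus, an antisense transcript or some kinds of non-coding RNA were left out of this count. Among the remaining tested genes, 7 were switched on with kava and 0 were switched off. APBB1IP stood at 0.0307, 0.0686 and 0.0478 TPM in vehicle replicates 1, 2 and 3 and at 9.13, 9.72 and 9.77 TPM in kava replicates 1, 2 and 3. APBB1IP links RAP1 to integrin activation and is best known in blood cells (difference of 3.33 ± 0.0840, log2 scale, limma adjusted p = 1.54e-06). COL1A2 stood at 0.0834, 0.163 and 0.0558 TPM in vehicle replicates 1, 2 and 3 and at 8.97, 8.32 and 8.32 TPM in kava replicates 1, 2 and 3 (difference of 3.12 ± 0.0904, log2 scale, limma adjusted p = 2.73e-06). COL1A2, a chain of type I collagen, rose while its partner chain COL1A1 stood at 95.4 ± 4.84 TPM with vehicle and 86.4 ± 0.490 TPM with kava (difference of -0.14 ± 0.0442, log2 scale, limma adjusted p = 0.0469), a call that ended without any single library but vehicle replicate 3, at a highest limma adjusted p of 0.138. PKIA, an inhibitor of protein kinase A, went from 0.162 ± 0.0118 to 5.70 ± 0.175 TPM, and BCHE, butyrylcholinesterase, from 0.0122 ± 0.0106 to 3.55 ± 0.0240 TPM (difference of 2.17 ± 0.0989, log2 scale, limma adjusted p = 1.19e-05). KYNU, kynureninase of tryptophan breakdown, went from 0.114 ± 0.0221 to 3.20 ± 0.0471 TPM (difference of 1.92 ± 0.0993, log2 scale, limma adjusted p = 1.97e-05). PTPRN and CADPS2, described with the granule genes, complete the 7. All 7 lay under 0.2 TPM in each vehicle library, so they passed the 1 TPM filter only through the kava libraries. In Cr(VI) and vehicle cells transfected with control siRNA, which were measured apart as FPKM (fragments scaled for transcript length and library size), PTPRN, APBB1IP, COL1A2, PKIA, BCHE and KYNU also lay low, at mean levels of 0.109, 0.0855, 0.00813, 0.120, 0.00604 and 0.00260 FPKM.

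GLUL, glutamine synthetase, rose from 0.565 ± 0.281 to 15.2 ± 1.27 TPM (difference of 3.38 ± 0.140, log2 scale, limma adjusted p = 8.35e-06). LAMA4 stood at 1.51, 1.64 and 1.9 TPM in vehicle replicates 1, 2 and 3 and at 12.2, 11.8 and 12.5 TPM in kava replicates 1, 2 and 3 (difference of 2.30 ± 0.0791, log2 scale, limma adjusted p = 4.78e-06). LAMA4 is a laminin chain of basement membranes, and its groups lay apart, as the ranking required. CSF3 stood at 6.75, 6.35 and 6.59 TPM in vehicle replicates 1, 2 and 3 and at 36.2, 34.1 and 34.7 TPM in kava replicates 1, 2 and 3 (difference of 2.25 ± 0.0503, log2 scale, limma adjusted p = 1.20e-06). CSF3 encodes granulocyte colony-stimulating factor, and its vehicle values all lay below its kava values, as the ranking also required. PDPN, podoplanin of alveolar type I and invasive epithelial cells, rose from 18.5 ± 0.874 to 64.8 ± 3.15 TPM. TNFRSF6B, a decoy receptor for FAS ligand, rose from 21.7 ± 1.09 to 92.4 ± 15.1 TPM, and ENPP2, autotaxin, which makes lysophosphatidic acid, rose from 3.21 ± 0.0996 to 14.4 ± 0.841 TPM. PLPP2, a phosphatase that breaks down lysophosphatidic acid outside the cell, rose from 7.24 ± 0.50 to 36.9 ± 5.00 TPM. Other large rises were those of LAMP3 (1.88), a lysosomal membrane protein, P3H2 (1.81), a collagen prolyl 3-hydroxylase, and the ligand WNT7B (1.74).

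**Figure D2:**
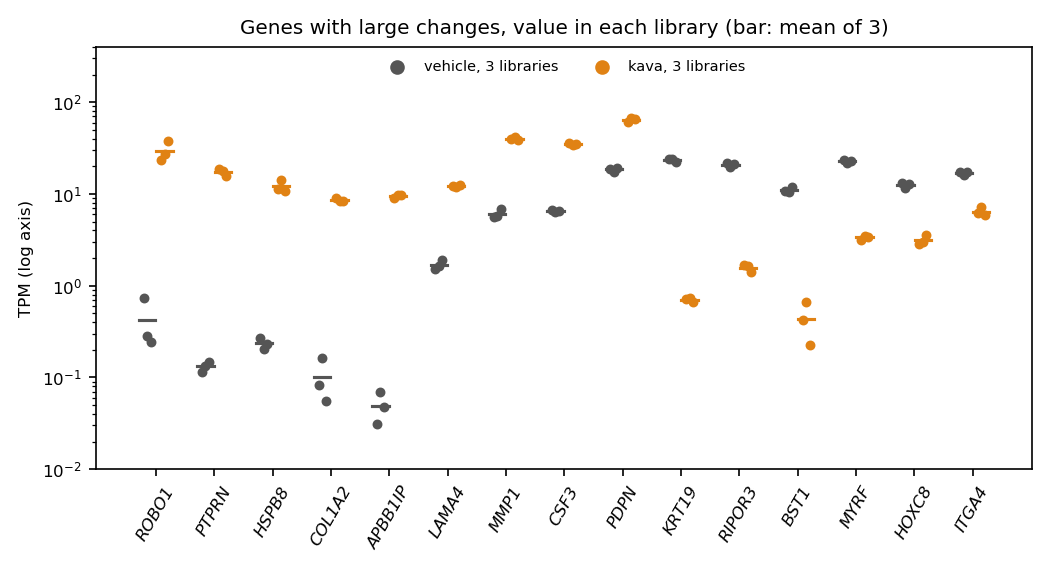
Level of 15 genes in each library, in TPM on a log axis, with grey points for the 3 vehicle libraries, orange points for the 3 kava libraries and a bar at each mean. ROBO1, PTPRN, HSPB8, COL1A2 and APBB1IP lie below 1 TPM in every vehicle library and above 8 TPM in every kava library, and KRT19 lies at 22.2 to 24.2 TPM with vehicle and under 1 TPM with kava.

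The regulatory sequence before the start of 5 of these and other changed genes is printed to show where short motifs of stress-responsive factors fall. The 5 were chosen after their changes and motifs were seen. Each run holds the 250 bases before the annotated start, 5′ to 3′ on the gene's own strand, from RefSeq on GRCh38.p14, with motif matches in capitals. BCHE lies at chr3:165837424-165837673 (minus strand), HCLS1 at chr3:121660904-121661153 (minus strand), HSPB8 at chr12:119178681-119178930 (plus strand), DPYSL3 at chr5:147510069-147510318 (minus strand) and GJA1 at chr6:121435396-121435645 (plus strand).
BCHE: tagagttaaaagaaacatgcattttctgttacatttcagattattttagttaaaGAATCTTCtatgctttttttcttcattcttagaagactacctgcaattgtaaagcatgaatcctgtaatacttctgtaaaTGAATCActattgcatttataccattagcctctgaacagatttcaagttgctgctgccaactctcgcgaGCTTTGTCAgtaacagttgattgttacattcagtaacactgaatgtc
HCLS1: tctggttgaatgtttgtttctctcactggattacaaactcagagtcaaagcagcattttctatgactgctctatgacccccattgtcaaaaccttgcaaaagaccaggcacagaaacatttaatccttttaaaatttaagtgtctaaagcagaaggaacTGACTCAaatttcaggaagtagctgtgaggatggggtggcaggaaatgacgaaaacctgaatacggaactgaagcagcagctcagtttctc
HSPB8: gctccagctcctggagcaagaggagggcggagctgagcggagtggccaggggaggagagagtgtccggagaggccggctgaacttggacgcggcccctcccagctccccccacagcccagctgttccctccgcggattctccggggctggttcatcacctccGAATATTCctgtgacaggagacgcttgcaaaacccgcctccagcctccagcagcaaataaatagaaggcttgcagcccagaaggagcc
DPYSL3: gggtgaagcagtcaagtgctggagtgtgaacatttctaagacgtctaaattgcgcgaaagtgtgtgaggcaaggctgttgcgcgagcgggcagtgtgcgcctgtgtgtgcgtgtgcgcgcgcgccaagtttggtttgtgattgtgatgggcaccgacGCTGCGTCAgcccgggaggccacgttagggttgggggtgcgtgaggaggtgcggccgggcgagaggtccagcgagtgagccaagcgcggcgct
GJA1: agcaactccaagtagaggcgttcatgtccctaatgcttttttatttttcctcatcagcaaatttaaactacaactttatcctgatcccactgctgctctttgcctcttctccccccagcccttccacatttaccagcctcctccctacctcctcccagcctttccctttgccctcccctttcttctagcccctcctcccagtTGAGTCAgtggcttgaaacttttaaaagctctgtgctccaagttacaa

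In BCHE, a core of the antioxidant response element (TGACNNNGC, N being any base) ran on the minus strand from 47 to 39 bases before the start. Letters of the AP-1 pattern (TGANTCA) ran from 116 to 110, with A as the middle base. A pair of heat shock element units (GAANNTTC) ran from 196 to 189. HCLS1, an actin regulator of blood cells that rose by 2.41, held an AP-1 site from 91 to 85, and HSPB8 a heat shock pair from 88 to 81. DPYSL3, a regulator of the neuronal cytoskeleton that rose by 2.53, held an antioxidant core on the minus strand from 93 to 85. GJA1, connexin 43, which fell by 0.95, held an AP-1 site from 48 to 42. A match is a description of letters and not a shown binding site.

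Over 10224 tested genes with a RefSeq promoter, searched on both strands from 250 bases before to 50 after the start, the AP-1 letters were in 4.47% of all promoters, 6.93% of those of genes called higher and 3.45% of those of genes called lower. The antioxidant core was in 15.3%, 16.1% and 13.7%. The heat shock pair was in 4.67%, 4.83% and 4.60%. A cyclic AMP element (TGACGTC) was in 5.73%, 4.83% and 5.69%, and a composite of ATF4 and C/EBP (TGATGNAA) in 1.58%, 2.10% and 1.72%. The E-box of lysosomal genes (CACGTG) was in 10.2%, 9.20% and 11.0%, the xenobiotic response core (TNGCGTG) in 7.44%, 7.28% and 6.72%, and the TEAD site (GGAATG) in 10.7%, 11.1% and 11.2%. Among the 97 matched promoters of genes called higher and the 40 of genes called lower by at least 2-fold, the AP-1 letters were in 8.25% and 5.00%, the antioxidant core in 10.3% and 10.0%, and the heat shock pair in 8.25% and 5.00%. In those promoters the cyclic AMP element was in 0% and 0%, the ATF4 composite in 1.03% and 0%, the E-box in 7.22% and 7.5%, the xenobiotic core in 4.12% and 5.00%, and the TEAD site in 9.28% and 15%. The AP-1 letters were counted with any middle base. They can overlap with the antioxidant letters, and these shares were not tested.

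KRT19 stood at 24.2, 24.2 and 22.2 TPM in vehicle replicates 1, 2 and 3 and at 0.708, 0.734 and 0.672 TPM in kava replicates 1, 2 and 3. KRT19 is a keratin of simple epithelia, and the groups lay apart (difference of -3.85 ± 0.0687, log2 scale, limma adjusted p = 6.83e-07). It spans chr17:41523617-41528308 of hg38. BST1 stood at 10.7, 10.5 and 11.9 TPM in vehicle replicates 1, 2 and 3 and at 0.424, 0.657 and 0.226 TPM in kava replicates 1, 2 and 3 (difference of -3.08 ± 0.123, log2 scale, limma adjusted p = 7.75e-06). BST1 is a surface enzyme that acts on NAD. RIPOR3 stood at 21.9, 19.5 and 21.1 TPM in vehicle replicates 1, 2 and 3 and at 1.67, 1.66 and 1.40 TPM in kava replicates 1, 2 and 3 (difference of -3.09 ± 0.0771, log2 scale, limma adjusted p = 1.54e-06). SIM2, a transcription factor of development, fell from 17.9 ± 1.07 to 5.59 ± 0.605 TPM. PLTP, the phospholipid transfer protein, fell from 10.9 ± 0.800 to 3.29 ± 0.563 TPM, and TUBB2B, a neuronal beta-tubulin, from 60.1 ± 2.76 to 21.6 ± 1.06 TPM. BST2, tetherin, which holds enveloped virus at the cell surface, fell from 25.7 ± 0.804 to 8.93 ± 0.572 TPM. PLAC8 fell from 91.1 ± 2.23 to 40.8 ± 2.95 TPM, and the integrin ITGA4, which binds VCAM1 and fibronectin, from 16.8 ± 0.780 to 6.40 ± 0.662 TPM. HOXC6 (-1.40), the carboxypeptidase CPVL (-1.39), the transporter SLC22A17 (-1.30) and PLEKHG4B (-1.28) fell as well. Ranked falls, too, were taken only from genes whose groups did not overlap, so that separation was set by the choice.

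Among nuclear-encoded genes called higher, the largest gain in TPM was that of ACTG1. ACTG1 stood at 2564, 2574 and 2445 TPM in vehicle replicates 1, 2 and 3 and at 3978, 3761 and 3489 TPM in kava replicates 1, 2 and 3 (difference of 0.56 ± 0.0527, log2 scale, limma adjusted p = 0.000276), so cytoplasmic gamma-actin was 1.48 times its vehicle level. TMSB4X, thymosin beta 4, which holds actin monomers, rose from 2566 ± 65.4 to 3531 ± 156 TPM. S100A6, calcyclin, rose from 799 ± 26.5 to 1322 ± 20.6 TPM (difference of 0.73 ± 0.0360, log2 scale, limma adjusted p = 1.71e-05). Among genes called lower, the largest loss in TPM was that of the mitochondrially encoded MT-CO1, from 14761 ± 416 to 13095 ± 173 TPM, described with the other mitochondrial genes. The largest loss of a nuclear-encoded gene was that of the elongation factor EEF1A1, from 8496 ± 48 to 7628 ± 209 TPM (difference of -0.16 ± 0.0352, log2 scale, limma adjusted p = 0.0137). That call ended under quantile normalization (limma adjusted p = 0.765), without the filter on low values, and without vehicle replicate 1 or 2. Of the nuclear-encoded genes called lower, the ribosomal proteins RPS29, RPS27, RPS19 and RPS3A followed, with RPS29 falling from 1850.3 ± 109 to 1186 ± 119 TPM. The ribosomal proteins RPL38 and RPL35A rose, from 1472 ± 147 to 1986 ± 211 TPM and from 1347 ± 70.8 to 1772 ± 78.8 TPM. Without the filter on low values the calls of RPS27 and RPL38 ended, at limma adjusted p = 0.0535 and 0.0532. Ribosomal protein genes have many processed pseudogenes that can share their reads. Summed over all genes called higher, the level went from 145350.0 TPM with vehicle to 185140.0 TPM with kava, and over all genes called lower from 243650.0 to 207670.0 TPM.

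Enzymes that handle foreign compounds moved in both directions. The shares to read list counts against are 16.3% higher and 15.6% lower among all tested genes. A member averaging under 1 TPM in 1 group could enter a list count only by being higher in the other, as CYP2R1 did. Where more than 4 called members of a list are named, those with the smaller changes were chosen after their values were seen. Where leaving out 1 library moved a count of 5 or more by over 1.5 times, or to 0, that count follows with the libraries concerned, vehicle 1 standing for vehicle replicate 1. Of 56 cytochrome P450 genes in the table only 10 reached the level tested, of which 1 rose and 1 fell: the vitamin D 25-hydroxylase CYP2R1 rose from 0.255 ± 0.0135 to 2.47 ± 0.295 TPM (difference of 1.46 ± 0.114, log2 scale, limma adjusted p = 0.000118), and CYP51A1 of cholesterol synthesis fell by 0.27. Of the conjugating enzymes, 4 of 21 tested members rose and 7 fell (median log2 fold change -0.040). The glutathione transferases GSTA4 and GSTM2 fell by 0.81 and 0.51. SULT1A1 stood at 1.77, 4.13 and 3.17 TPM in vehicle replicates 1, 2 and 3 and at 1.41, 0.831 and 0.612 TPM in kava replicates 1, 2 and 3. This sulphotransferase, of which near-identical copies exist, fell by 1.02, and the call ended without vehicle replicate 2, vehicle replicate 3 or kava replicate 2, at a highest limma adjusted p of 0.0682. Of the aldo-keto, carbonyl and aldehyde oxidoreductases, 6 of 32 tested members rose and 3 fell (median log2 fold change -0.024). Epoxide hydrolase EPHX1 rose by 0.67 and ALDH6A1 of valine breakdown fell by 0.53. Mitochondrial aldehyde dehydrogenase ALDH2, chosen after its value was seen and not a member of that list, rose from 15.3 ± 1.06 to 33.5 ± 2.79 TPM (difference of 1.08 ± 0.0751, log2 scale, limma adjusted p = 6.87e-05).

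Among ABC transporters, 10 of 24 tested members rose and 4 fell (median log2 fold change 0.083). ABCC3, an exporter of conjugated drugs, rose from 12.9 ± 0.578 to 25.4 ± 2.73 TPM, and ABCA1, which exports cholesterol, rose by 0.86. ABCA3 of lung surfactant granules fell by 0.77. Of 37 genes of reported neuronal targets of kavalactones (GABA-A receptor subunits, sodium channels, cannabinoid receptors and monoamine oxidases), only 5 reached the level tested. SCN8A stood at 5.45 ± 0.0782 TPM with vehicle and 4.41 ± 0.249 TPM with kava (difference of -0.26 ± 0.0694, log2 scale, limma adjusted p = 0.0273). The SCN8A call ended without any single library but kava replicate 2, at a highest limma adjusted p of 0.0808. Rises among ABC transporters numbered 5 or 6 without vehicle 1, vehicle 2 or kava 2.

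Genes that bear on chromate entry, reduction and damage moved in both directions. Among those of glutathione and peroxide defence, 11 of 36 tested members rose and 4 fell (median log2 fold change 0.10). GPX3 stood at 0.724, 0.810 and 1.14 TPM in vehicle replicates 1, 2 and 3 and at 6.07, 6.63 and 6.78 TPM in kava replicates 1, 2 and 3 (difference of 1.99 ± 0.108, log2 scale, limma adjusted p = 2.33e-05). GPX3 is the secreted glutathione peroxidase, and its groups lay apart. GPX8 and the glutaredoxin GLRX rose by 0.53 and 0.52, and GGT1, which cleaves glutathione outside the cell, by 1.09. GPX3, GPX8 and GLRX on chromosome 5 and GGT1 on chromosome 22 lie in stretches where many neighbours rose. Outside 20 windows of neighbouring genes whose median change was beyond 0.1, described further on as shifted windows, the list counted 6 of 28 higher and 3 lower. Among sulphate, ascorbate and hexose transporters, 3 of 11 tested members rose and 2 fell (median log2 fold change 0.069). The sulphate transporters SLC26A11 and SLC26A2 rose by 0.55 and 0.49, the glucose transporter SLC2A1 rose by 0.39, and SLC2A3 fell by 0.72. Both sulphate transporters lie in raised stretches, SLC26A11 on chromosome 17 and SLC26A2 on chromosome 5, and outside the shifted windows the transporter list counted 1 of 9 higher and 2 lower. In iron and haem handling, 10 of 31 tested members rose and 4 fell (median log2 fold change 0.046). The metalloreductase STEAP2 rose by 0.73, and the iron exporter SLC40A1, ferroportin, fell by 0.66. Rises among glutathione and peroxide defence numbered 17 without kava 3. Rises among iron and haem handling numbered 6 without kava 2.

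In excision, mismatch and end-joining repair, 6 of 56 tested members rose and 16 fell (median log2 fold change -0.10). DDB2, which recognises ultraviolet lesions, fell from 33.0 ± 0.481 to 24.6 ± 2.31 TPM, and GTF2H3 of the TFIIH complex from 47.7 ± 2.11 to 36.2 ± 1.48 TPM. The mismatch protein MSH6 fell by 0.20, and the end-joining proteins XRCC5 and XRCC6 by 0.24 and 0.11. The glycosylase MBD4 rose by 0.38 and MSH3 by 0.32. Outside the shifted windows the list counted 3 of 46 higher and 12 lower. MGMT, which removes alkyl groups from guanine, was chosen after its values were seen. MGMT stood at 0, 0.115 and 0.0722 TPM in vehicle replicates 1, 2 and 3 and at 2.46, 2.21 and 1.74 TPM in kava replicates 1, 2 and 3 (difference of 1.56 ± 0.134, log2 scale, limma adjusted p = 0.000186). It was listed at 0 in all 3 control siRNA libraries.

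The matrix groups split by kind. Among collagens, 3 of 21 tested members rose and 10 fell (median log2 fold change -0.14). COL27A1 fell from 18.3 ± 1.57 to 9.42 ± 0.260 TPM, and COL5A2, COL12A1, COL11A2 and COL9A2 fell by 0.76, 0.66, 0.64 and 0.63. Besides COL1A2, COL13A1 and COL8A1 rose by 0.99 and 0.85. Among laminins and other basement membrane proteins, 10 of 19 tested members rose and 4 fell (median log2 fold change 0.19). LAMB3, LAMB1, LAMC1 and LAMB2 rose by 0.37, 0.29, 0.28 and 0.19, EFEMP1 rose from 68.7 ± 0.475 to 134 ± 1.95 TPM, and NID2 fell by 0.76. The small proteoglycan BGN, chosen after its value was seen, fell from 2.61 ± 0.294 to 0.715 ± 0.0908 TPM.

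Among matrix proteases and their inhibitors, 23 of 56 tested members rose and 5 fell (median log2 fold change 0.14). MMP1 stood at 5.63, 5.77 and 6.82 TPM in vehicle replicates 1, 2 and 3 and at 39.8, 42.0 and 38.5 TPM in kava replicates 1, 2 and 3 (difference of 2.54 ± 0.0749, log2 scale, limma adjusted p = 2.73e-06). The interstitial collagenase MMP1 thus lay apart between groups, and so did the stromelysin MMP3, which rose from 1.23 ± 0.338 to 6.15 ± 0.645 TPM. PLAU, urokinase, rose from 87.7 ± 1.70 to 197 ± 4.86 TPM and its receptor PLAUR by 0.66. Inhibitors of metalloproteinases rose as well, TIMP3 from 0.568 ± 0.0536 to 3.60 ± 0.0469 TPM and TIMP2 by 0.86. ADAM33 fell from 4.61 ± 0.269 to 1.10 ± 0.0926 TPM. Of the integrin subunits, 8 of 15 tested members rose and 1 fell (median log2 fold change 0.24). ITGA6 and ITGB4, which pair to bind laminin, rose from 21.2 ± 0.934 to 44.1 ± 0.333 TPM and from 6.27 ± 0.231 to 10.5 ± 1.17 TPM, and ITGA2, a collagen receptor subunit, rose by 0.89. ITGA4 was the 1 that fell. Falls among matrix proteases and inhibitors numbered 3 without vehicle 3.

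Junction and keratin genes changed in opposite directions within families. In the tight and gap junction list 7 of 23 tested members rose and 2 fell (median log2 fold change 0.078). GJB2 stood at 0.430, 0.320 and 0.648 TPM in vehicle replicates 1, 2 and 3 and at 5.73, 5.40 and 5.27 TPM in kava replicates 1, 2 and 3 (difference of 2.15 ± 0.111, log2 scale, limma adjusted p = 1.92e-05), while GJA1 stood at 82.6, 84.1 and 84.9 TPM in vehicle replicates 1, 2 and 3 and at 42.7, 43.5 and 42.5 TPM in kava replicates 1, 2 and 3 (difference of -0.95 ± 0.0355, log2 scale, limma adjusted p = 6.51e-06). Both encode connexins, and neither overlapped between groups. Claudin CLDN1 rose by 0.67. Of the cadherins and protocadherins, 4 of 18 tested members rose and 6 fell (median log2 fold change -0.062), with CDH4 at 1.03 and the desmosomal cadherin DSG2 at -0.58. Outside the shifted windows the cadherin list counted 1 of 8 higher and 3 lower. Of the keratins, 2 of 9 tested members rose and 4 fell (median log2 fold change 0.046). KRT7 rose from 192 ± 2.85 to 406 ± 19.0 TPM, whereas KRT17 fell from 57.4 ± 3.63 to 35.4 ± 1.97 TPM and KRT8 by 0.21. KRT18 stood at -0.11, a call that ended without any single library but kava replicate 3, at a highest limma adjusted p of 0.127.

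**Figure D3:**
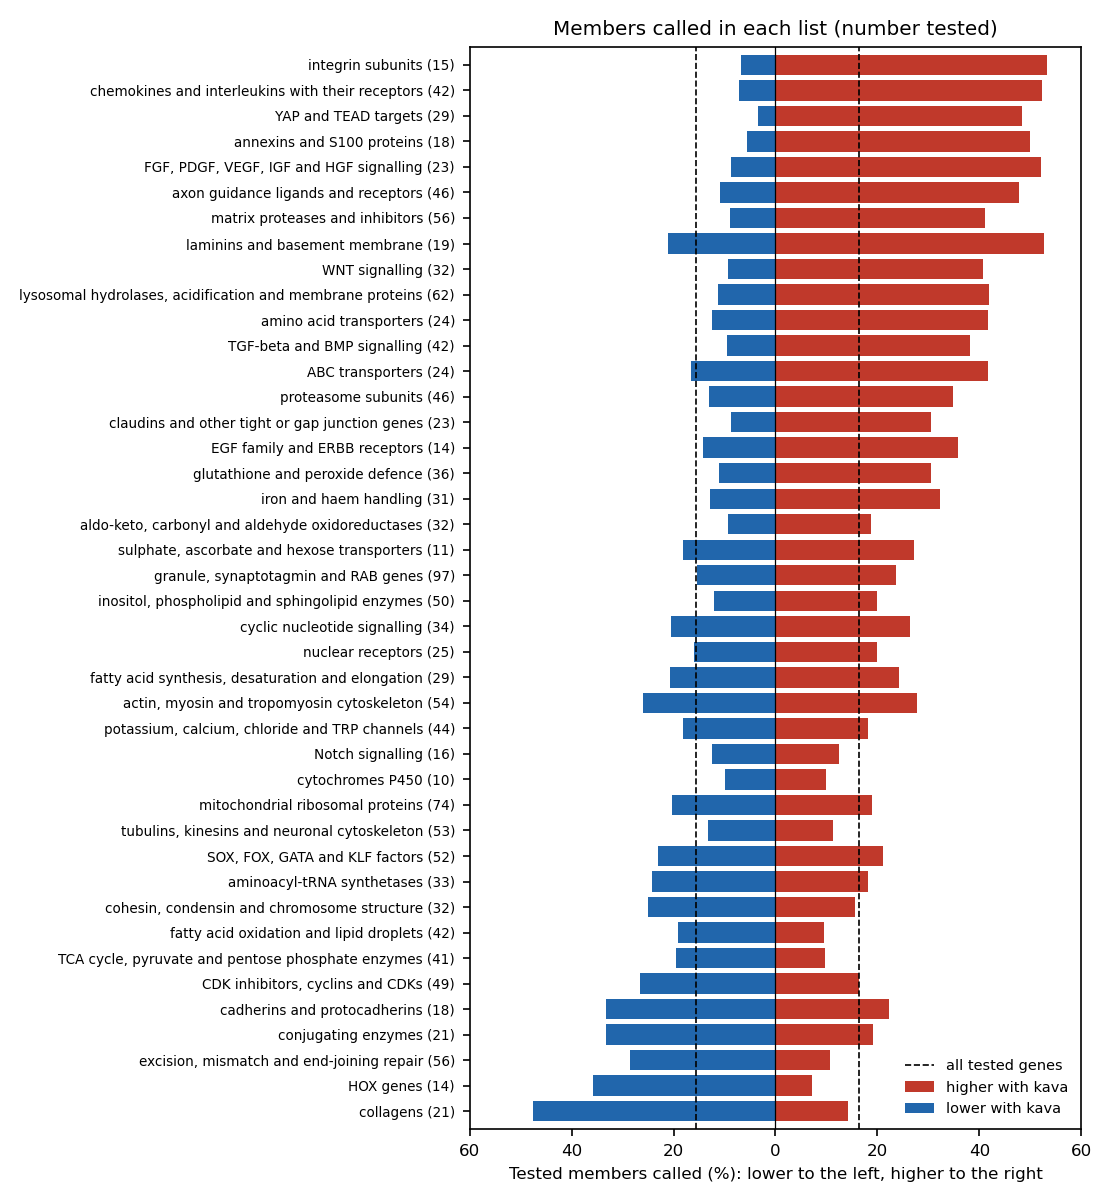
Share of tested members called in each of 42 gene lists with at least 10 tested members, in percent, with genes called lower to the left in blue and higher to the right in red, and the number tested in parentheses. The dashed lines mark the shares among all tested genes, 16.3% higher and 15.6% lower, and the integrin, cytokine and YAP lists reach far past the right line while the collagen and HOX lists reach past the left.

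Secreted signals and their receptors were more often called higher than lower. Among chemokines and interleukins with their receptors, 22 of 42 tested members rose and 3 fell (median log2 fold change 0.24). CSF2 rose from 17.3 ± 0.272 to 35.6 ± 1.13 TPM, IL24 from 3.41 ± 0.484 to 9.85 ± 1.19 TPM and IL1B from 67.9 ± 5.03 to 127 ± 10.5 TPM, and CXCL1 and IL6 by 0.54 and 0.22. IL32 fell by 0.87 and CCL2 by 0.35. Among axon guidance ligands and receptors, 22 of 46 tested members rose and 5 fell (median log2 fold change 0.17), of which ROBO1, DPYSL3, EFNA5 and SEMA7A rose by at least 2-fold. EFNA5 stood at 0.877, 0.400 and 0.645 TPM in vehicle replicates 1, 2 and 3 and at 6.81, 8.29 and 8.35 TPM in kava replicates 1, 2 and 3 (difference of 2.43 ± 0.133, log2 scale, limma adjusted p = 2.53e-05). EFNA5 is a membrane-bound ligand of EPH receptors, and its receptor EPHA2 rose by 0.69. The SLIT ligands of ROBO1, SLIT2 and SLIT3, rose by 0.35 and 0.42, and ROBO4 fell by 0.64. Falls among axon guidance ligands and receptors numbered 8 without vehicle 3.

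In the EGF family 5 of 14 tested members rose and 2 fell (median log2 fold change 0.056), and the 5 that rose were the ligands EPGN (1.38), EREG (1.34), HBEGF (0.72), AREG (0.65) and TGFA (0.61). EREG went from 0.915 ± 0.0605 to 3.85 ± 0.157 TPM and HBEGF from 19.2 ± 0.278 to 32.3 ± 1.49 TPM. EPGN, at 0.116 TPM with vehicle and 1.91 TPM with kava, passed the 1 TPM filter only through the kava libraries. In FGF, PDGF, VEGF, IGF and HGF signalling 12 of 23 tested members rose and 2 fell (median log2 fold change 0.22). The growth factor PDGFB rose from 2.78 ± 0.216 to 6.04 ± 0.158 TPM, the binding proteins IGFBP4 and IGFBP3 by 0.82 and 0.72, the receptor MET by 0.58 and VEGFA by 0.45, whereas the receptor IGF1R fell from 13.2 ± 0.407 to 8.03 ± 0.738 TPM.

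In TGF-beta and BMP signalling 16 of 42 tested members rose and 4 fell (median log2 fold change 0.13). INHBA stood at 0.659, 0.694 and 0.714 TPM in vehicle replicates 1, 2 and 3 and at 4.59, 4.40 and 4.46 TPM in kava replicates 1, 2 and 3 (difference of 1.70 ± 0.0852, log2 scale, limma adjusted p = 1.79e-05). INHBA encodes the subunit of activin A, and its groups lay apart. The BMP targets ID1 and ID2 rose from 65.9 ± 4.16 to 130.4 ± 13.7 TPM and from 5.77 ± 0.726 to 14.7 ± 0.575 TPM, the BMP inhibitor NOG by 0.90 and TGFB2 by 0.57, and BAMBI, a decoy receptor, fell by 0.55. In WNT signalling 13 of 32 tested members rose and 3 fell (median log2 fold change 0.059). Besides WNT7B, the secreted inhibitors SFRP1 and DKK3 rose by 0.97 and 0.80, and WNT5A fell from 24.0 ± 0.247 to 14.3 ± 0.730 TPM. Outside the shifted windows the WNT list counted 8 of 26 higher and 3 lower. Of the YAP and TEAD targets, 14 of 29 tested members rose and 1 fell (median log2 fold change 0.21). Tissue factor F3 rose from 94.6 ± 3.14 to 170.1 ± 9.00 TPM, the ectonucleotidase NT5E by 0.78, and CCN1 and CCN2 by 0.54 and 0.43, while YAP1 itself stood at -0.25. In Notch signalling 2 of 16 tested members rose and 2 fell (median log2 fold change -0.016), with HES1 at 0.77. Thrombomodulin THBD, chosen after its values were seen, rose from 1.45 ± 0.0289 to 7.07 ± 0.421 TPM. In cyclic nucleotide signalling 9 of 34 tested members rose and 7 fell (median log2 fold change 0.076), with the regulatory subunit PRKAR1A of protein kinase A at 0.52 and the cyclase ADCY1 at -0.49. Falls among YAP and TEAD targets numbered 0 without vehicle 1, vehicle 3 or kava 1. Rises among cyclic nucleotide signalling numbered 4 or 5 without vehicle 1, vehicle 3 or kava 2, and falls numbered 1 to 4 without vehicle 1, vehicle 2, vehicle 3, kava 1 or kava 2.

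Among cell cycle regulators 8 of 49 tested members rose and 13 fell (median log2 fold change -0.074). Cyclins D1 and D3 rose, CCND1 from 28.9 ± 1.71 to 65.6 ± 2.75 TPM and CCND3 from 36.8 ± 0.438 to 53.8 ± 4.54 TPM, whereas their kinase CDK6 fell from 13.8 ± 0.813 to 9.63 ± 0.961 TPM. The inhibitors CDKN1A and CDKN1C fell by 0.46 and 0.55, and CCNE1 and CDK2 by 0.30 and 0.23. Among cohesin, condensin and other chromosome proteins 5 of 32 tested members rose and 8 fell (median log2 fold change -0.11), with STAG2 at -0.24 and TOP2B at -0.26. Outside the shifted windows the list counted 1 of 27 higher and 7 lower. Rises among CDK inhibitors, cyclins and CDKs numbered 5 without vehicle 3 or kava 2, and falls numbered 7 or 8 without vehicle 2, vehicle 3 or kava 2. Rises among cohesin, condensin and chromosome structure numbered 2 or 3 without vehicle 1, vehicle 2, vehicle 3 or kava 2, and falls numbered 4 without vehicle 1.

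Of the HOX genes, which set position along the body axis, 1 of 14 tested members rose and 5 fell (median log2 fold change -0.017). HOXA10 stood at 3.15, 4.06 and 3.67 TPM in vehicle replicates 1, 2 and 3 and at 0.317, 0.609 and 0.474 TPM in kava replicates 1, 2 and 3 (difference of -1.66 ± 0.125, log2 scale, limma adjusted p = 0.000106). HOXC8, HOXC6 and HOXC4, neighbours on chromosome 12, fell from 12.5 ± 0.727 to 3.12 ± 0.376 TPM, from 11.3 ± 0.793 to 3.65 ± 0.294 TPM and from 4.37 ± 0.355 to 1.09 ± 0.158 TPM. These 4 are the HOX genes that fell by at least 2-fold, and their groups lay apart. HOXB9 fell by 0.57 and HOXB7 rose by 0.32. Of the SOX, FOX, GATA, KLF and related factors 11 of 52 tested members rose and 12 fell (median log2 fold change -0.0095). ETV5, a target and effector of ERK signalling, rose from 6.63 ± 0.223 to 18.1 ± 0.686 TPM, SOX9 by 0.82, and the epithelial factor ELF3 fell from 49.1 ± 3.11 to 29.2 ± 1.34 TPM. Of the nuclear receptors 5 of 25 tested members rose and 4 fell (median log2 fold change -0.0040), with the vitamin D receptor VDR at -0.54 and the retinoid receptor RARB at -0.52. Rises among HOX genes numbered 0 without vehicle 1. Falls among SOX, FOX, GATA and KLF factors numbered 7 without vehicle 2 or kava 2. Rises among nuclear receptors numbered 1 to 3 without each library in turn.

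Metabolic groups moved in both directions. Among enzymes of the citric acid cycle, pyruvate and the pentose phosphate path 4 of 41 tested members rose and 8 fell (median log2 fold change -0.075). IDH2 and DLST of the cycle fell by 0.54 and 0.53, and transaldolase TALDO1 rose from 257 ± 4.96 to 355 ± 9.86 TPM. In fatty acid oxidation and lipid droplets 4 of 42 tested members rose and 8 fell (median log2 fold change -0.084), with the fatty acid carrier FABP5 at -0.70 and the rate-limiting CPT1A at 0.55. In fatty acid synthesis 7 of 29 tested members rose and 6 fell (median log2 fold change 0.045). Among inositol, phospholipid and sphingolipid enzymes 10 of 50 tested members rose and 6 fell (median log2 fold change 0.0045). ISYNA1, which starts inositol synthesis, fell from 25.5 ± 2.87 to 4.01 ± 0.488 TPM, and the phospholipase PLCB4 rose from 16.8 ± 0.386 to 36.6 ± 1.33 TPM. Of the amino acid transporters 10 of 24 tested members rose and 3 fell (median log2 fold change 0.050), with the glycine transporter SLC6A9 at 0.57 and the cationic transporter SLC7A2 at -0.93. The glycine cleavage enzyme GLDC, chosen after its value was seen, fell from 3.14 ± 0.301 to 0.692 ± 0.128 TPM. Falls among fatty acid oxidation and lipid droplets numbered 4 or 5 without vehicle 1, vehicle 2, vehicle 3 or kava 1. Falls among fatty acid synthesis, desaturation and elongation numbered 2 or 3 without vehicle 2 or vehicle 3.

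Of the mitochondrial ribosomal proteins 14 of 74 tested members rose and 15 fell (median log2 fold change -0.081). Most of the rises lay in shifted windows, outside which the list counted 2 of 57 higher and 15 lower. MRPS14, which lies elsewhere, rose from 16.3 ± 1.12 to 30.6 ± 2.81 TPM. Of the aminoacyl-tRNA synthetases 6 of 33 tested members rose and 8 fell (median log2 fold change -0.063), and the falls included the mitochondrial NARS2, at -0.36. Among 13 mitochondrially encoded mRNAs, 0 rose and 1 fell, MT-CO1, at -0.17, a call that ended under quantile normalization, without the filter on low values, and without vehicle replicate 2 or kava replicate 2, at a highest limma adjusted p of 0.536. Mitochondrial transcripts made up 9.92% to 11.3% of TPM over the 6 libraries. Rises among mitochondrial ribosomal proteins numbered 8 without vehicle 2, and falls numbered 7 to 9 without vehicle 1, vehicle 2, vehicle 3 or kava 2. Falls among aminoacyl-tRNA synthetases numbered 4 or 5 without vehicle 1, vehicle 2, vehicle 3 or kava 1.

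In the lysosome list 26 of 62 tested members rose and 7 fell (median log2 fold change 0.16). The proteases CTSD and CTSB rose from 116 ± 4.69 to 215 ± 16.4 TPM and from 247 ± 4.00 to 421 ± 16.8 TPM, the activator GM2A by 0.74 and the glycoprotein GPNMB by 0.71, and the subunit ATP6V1D of the proton pump fell by 0.21. Outside the shifted windows the list counted 16 of 48 higher and 5 lower. Of the proteasome genes 16 of 46 tested members rose and 6 fell (median log2 fold change 0.091). PSMD2 stood at 413, 408 and 387 TPM in vehicle replicates 1, 2 and 3 and at 745, 724 and 684 TPM in kava replicates 1, 2 and 3 (difference of 0.83 ± 0.0440, log2 scale, limma adjusted p = 2.12e-05). PSMD2 is a subunit of the 19S cap that lies on chromosome 3 in a raised stretch. PSMG2, an assembly chaperone on chromosome 18, fell from 105 ± 1.29 to 65.4 ± 3.79 TPM, and outside the shifted windows the list counted 11 of 33 higher and 1 lower. Falls among lysosomal genes numbered 2 or 3 without vehicle 1, vehicle 3, kava 2 or kava 3.

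Among actin, myosin and tropomyosin genes 15 of 54 tested members rose and 14 fell (median log2 fold change 0.041). The falls included contractile genes of the smooth muscle type. CNN1, calponin, fell from 6.30 ± 0.519 to 1.89 ± 0.420 TPM, TAGLN from 269.6 ± 3.62 to 172 ± 11.4 TPM and MYL9 by 0.52. FSCN1, fascin, which bundles actin in cell protrusions, rose by 0.63. In tubulins, kinesins and neuronal cytoskeleton 6 of 53 tested members rose and 7 fell (median log2 fold change -0.00065), where the neurofilament protein INA rose from 0.571 ± 0.106 to 3.94 ± 0.197 TPM and the motor KIF5C fell by 0.93. In granule, synaptotagmin and RAB genes 23 of 97 tested members rose and 15 fell (median log2 fold change 0.020). CADPS2, which primes granules for release, rose from 0.0725 ± 0.0148 to 2.32 ± 0.142 TPM, RAB38 by 1.33, and SYT11 fell from 4.79 ± 0.137 to 1.25 ± 0.0788 TPM. Of the annexins and S100 proteins 9 of 18 tested members rose and 1 fell (median log2 fold change 0.15). S100A2 rose by 0.58 and ANXA10 fell by 0.70. Of the ion channels 8 of 44 tested members rose and 8 fell (median log2 fold change -0.0081), with the calcium channel subunit CACNG4 at -1.10 and the receptor ITPR3 at 0.71. The class II gene HLA-DPA1, chosen after its value was seen, rose from 2.26 ± 1.21 to 6.22 ± 0.857 TPM. Rises among tubulins, kinesins and neuronal cytoskeleton numbered 3 without vehicle 3 or kava 2. Rises among granule and RAB genes numbered 14 without kava 2, and falls numbered 8 or 9 without vehicle 1, vehicle 3 or kava 2. Rises among annexins and S100 proteins numbered 5 without kava 2. Rises among potassium, calcium, chloride and TRP channels numbered 5 without vehicle 3 or kava 2, and falls numbered 4 or 5 without vehicle 1, vehicle 3 or kava 2.

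Changes were unevenly spread over the genome. Tested genes with a GENCODE 29 position on hg38 were taken in order along each chromosome in windows of 100. Genes left over at the end of a chromosome had no window and are counted as outside the shifted windows. The end of a chromosome's last window therefore need not mark where a shift ended. Of 123 windows 103 had a median log2 fold change within 0.1 of 0, while 12 lay above and 8 below. On distal chromosome 3, from H1-10-AS1 at 129315392 to LPP-AS2 at 188154057, 126 of 200 tested genes rose and 1 fell (median log2 fold change 0.31). LPP-AS2 is the last gene there with a window. P3H2, CLDN1, HES1 and RPL35A lie beyond it and were called higher too. Over all of chromosome 3, 226 of 744 tested genes rose and 82 fell. On chromosome 5, from CCL28 at 43376645 to RNF130 at 180072118, 273 of 500 tested genes rose and 18 fell (median log2 fold change 0.24). These rises covered neighbours with unrelated roles, among them PSMD2, BCHE, ETV5 and LAMP3 on chromosome 3 and GPX3, CSF2, HBEGF, ITGA2 and EFNA5 on chromosome 5.

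On chromosome 14, from TTC5 at 20256558 to DYNC1H1 at 102056443, 12 of 400 tested genes rose and 231 fell (median log2 fold change -0.29). The fall was weakest in the first 100 of these genes, up to 34875647, with 27 lower and a median of -0.10. In the windows that followed the medians were -0.40, -0.34 and -0.32. On distal chromosome 17, from HEATR6 at 60043194 to RFNG at 82051831, 120 of 200 tested genes rose and 13 fell (median log2 fold change 0.34). RFNG is likewise the last gene there with a window. Over all of chromosome 17, 199 of 821 tested genes rose and 134 fell. The falls on chromosome 14 included DLST, GSTZ1, WARS1, NID2, RPS29 and SLC22A17, and the rises on chromosome 17 included PSMD12, MRPS7, SOX9, TIMP2, ITGB4 and ACTG1. CACNG4 fell although it lies in the raised stretch of chromosome 17. At the start of chromosome 18, from USP14 at 158383 to KIAA1328 at 37232172, 5 of 100 tested genes rose and 49 fell (median log2 fold change -0.25). On proximal chromosome 22, from DUXAP8 at 15784959 to CCDC117 at 28789301, 48 of 100 tested genes rose and 4 fell (median log2 fold change 0.22). Single windows beyond 0.1 also lay on chromosomes 11 (0.15), 8 (0.11), 2 (-0.12), 6 (-0.11) and 1 (-0.11). Among 11250 positioned genes outside all 20 windows beyond 0.1, the median was -0.023, with 13.3% higher and 15.4% lower. These include the leftover genes at chromosome ends. Each kava library showed each shift: the median difference from the vehicle mean was 0.28, 0.33 and 0.30 in kava replicates 1, 2 and 3 on distal chromosome 3, and -0.31, -0.30 and -0.28 on chromosome 14.

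**Figure D4:**
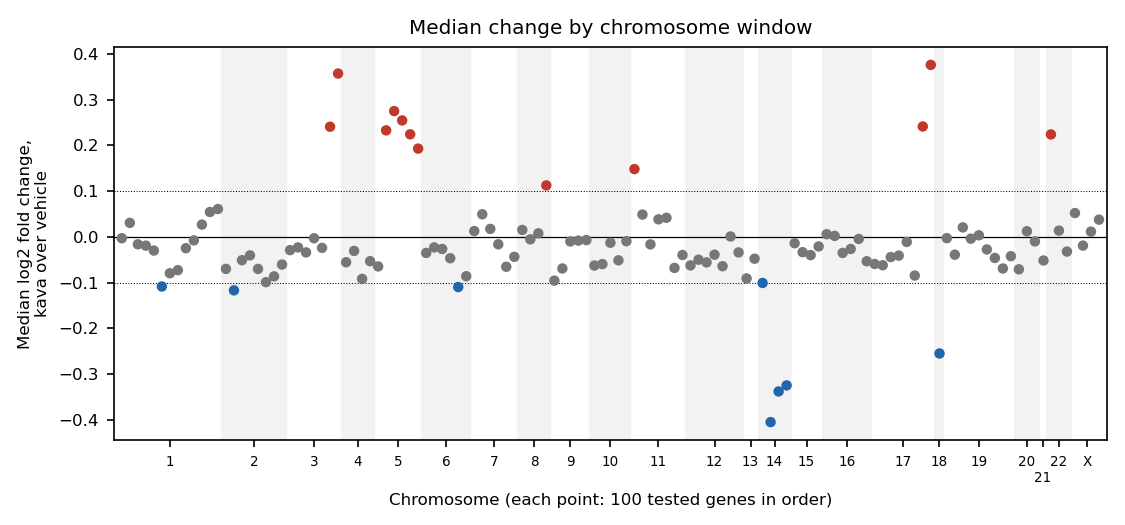
Median log2 fold change, kava over vehicle, of each window of 100 tested genes in order along chromosomes 1 to 22 and X. Red and blue points lie beyond the dotted lines at 0.1 and -0.1, and runs of them stand on chromosomes 3, 5 and 17 above the lines and on chromosome 14 below.

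**Figure D5:**
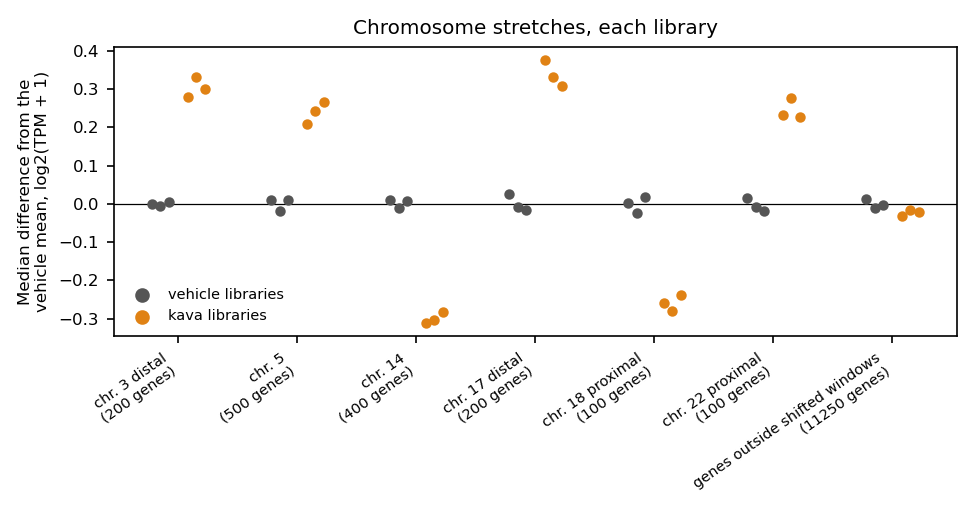
Median difference from the vehicle mean on log2(TPM + 1) for the genes of 6 chromosome stretches and for the positioned genes outside the 20 shifted windows, 1 point for each vehicle library in grey and each kava library in orange. In each stretch the 3 kava libraries lie together on the same side, between 0.21 and 0.38 above 0 or between -0.31 and -0.24 below it, and all libraries lie near 0 for the genes outside the windows. The stretches and the genes outside were picked by the size of these same changes. The stretch labelled proximal on chromosome 18 is the first window of that chromosome.

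Genes in the 20 windows beyond 0.1 numbered 2000, of which 689 rose and 405 fell (54.7% called). The windows were picked by the median change of these same genes, so a larger called share in them was fixed by that choice. Among the 11866 tested genes elsewhere, including those with no window, 1572 rose and 1763 fell (28.1%), with 120 rises and 53 falls of at least 2-fold. Such windows held 2000 of the 13866 tested genes, 3 of the 20 top-ranked rises and 1 of the 20 top-ranked falls. P3H2, another top-ranked rise, lies beyond the last window of chromosome 3 and is not among those 3. Of the changes of at least 2-fold, 31 of 151 rises and 4 of 57 falls lay in them. DPYSL3 and EFNA5 lay in them, and ROBO1, PTPRN, HSPB8, COL1A2 and KRT19 did not. Gene dosage was not measured, and its part in these stretches was not tested.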

How the data were processed

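RNA extracted with Trizol and selected on oligo(dT), per the labels' protocols, was sequenced from 3 kava and 3 vehicle libraries. The deposited table gives TPM per gene, scaled by the authors to the same sum in each library; its name refers to salmon, while the tools listed in the submitters' processing notes are HISAT2 2.0.4 and StringTie 1.3.4d, with cutadapt 1.9, DESeq2 and the hg38 build, so which tool gave these values is not settled in the sources used here. A separate deposited table holds FPKM and read counts of the authors for the control siRNA libraries. Only the FPKM levels of that table were set beside the TPM levels, with no test between tables, and its counts served only to see the depth there.

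Genes that averaged 1 TPM or more over the 6 libraries were tested on log2(TPM + 1) in limma 3.58.1 (R 4.3.3), with a trended prior and Benjamini-Hochberg adjustment over all 13866 genes, called at an adjusted p under 0.05. The test was checked on simulated data. Groups came from the labels. An exact permutation test of 3 against 3 libraries cannot go below p = 0.1 and was not used. Tables were handled in python 3.11.15 with pandas 2.3.3.

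The genes compared, the 44 gene lists and the tests were chosen with earlier results of these data known. Named genes were SNRPA1, ranked rises and falls with a mean of at least 5 TPM, the largest differences in TPM, up to 4 called members of each list, genes switched on, and members of 7 marker lists that averaged 1 TPM or more. The ranked genes and the largest differences in TPM were taken only from called genes whose groups did not overlap. Other genes, the chromosome stretches and the promoters shown were chosen after their values were seen. Replicate numbers were not shown to pair the libraries and no block entered the test. Alternatives were the pseudocount, the filter, the scaling, the prior, library weights, a replicate block and leaving out each library.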

Additional observations from a re-analysis of the deposited data

How the results depend on the processing

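No named gene reversed its direction in a called result, and 0 genes were called in opposite directions by the main analysis and any alternative. With a pseudocount of 0.1, 244 genes rose and 115 fell by at least 2-fold, and with a mean of at least 5 TPM required, 68 and 24 did. That filter tests fewer genes, and the smaller pseudocount gives low genes larger folds. Leaving out 1 library gave 1636 to 2207 genes higher, 1415 to 2058 lower, 144 to 167 higher by at least 2-fold and 55 to 61 lower by at least 2-fold, with 1415 lower without vehicle replicate 1. Library weights gave 2880 higher and 2835 lower, and centring on the median log ratio 2460 and 1912. Outside the shifted chromosome windows, an alternative chosen after seeing the data, 1572 were higher and 1763 lower. Of the named genes, 21 lost their call in at least 1 setting, and the cause was not tested.

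With the replicate number as a block, 2072 genes were higher and 1882 lower, 152 and 58 of them by at least 2-fold. The deviations of same-numbered libraries correlated at -0.016, -0.11 and 0.093, so the numbers were not taken to pair the libraries. Depth is unknown for TPM, and low genes are the least certain.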
